A study of Mus musculus with 4 samples.

Results

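The genes described here are 9 Toll-like receptors (Tlr1, Tlr2, Tlr3, Tlr4, Tlr6, Tlr7, Tlr8, Tlr9 and Tlr13) and Cd14, taken by their symbols from the gene table. All 10 were among its 27998 genes. Toll-like receptors recognise molecules of microbes and of damaged cells and are carried mainly by myeloid cells and B cells. Tlr1, Tlr2, Tlr4 and Tlr6 sit at the cell surface, where Tlr2 pairs with Tlr1 or Tlr6 to bind lipoproteins and Tlr4 binds lipopolysaccharide handed on by Cd14. Tlr3, Tlr7, Tlr8, Tlr9 and Tlr13 sense nucleic acids in endosomes and need the chaperone Unc93b1 to get there. All of them but Tlr3 signal through the adaptor Myd88, Tlr3 uses Ticam1, and Tlr4 uses both. In the brain, microglia are the resident macrophages and the cells best known for carrying these receptors.

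Droplet single-cell RNA-seq (10x Genomics, 3′ end) was made from sorted immune cells of C57BL/6 mouse brain. The healthy brain library came from mice for which no treatment and no age was given. The other 3 libraries came from C57BL/6J mice aged 8 to 12 weeks at implantation, whose hippocampus had received glioma-005, a mouse glioblastoma cell line, and each was a pool of 3 tumors collected on day 35. From day 7 the mice were given isotype control (rat IgG2a clone LTF-2; IgG), anti-CTLA-4 (clone 9H10, which blocks a checkpoint receptor of T cells), or anti-CTLA-4 with anti-CD4 (clone GK1.5), which depletes CD4 T cells (called depletion below, after its label). Microglia, other myeloid cells, T cells and remaining immune cells were sorted as 4 fractions and mixed in equal ratios, so the share of a lineage in a library was set by the sort. Each group was 1 library, so the groups have no replicate error and no test between them was possible. Intervals below are 95% intervals that cover counting error only. The healthy library also differed in sex: its microglia held 0 UMIs of Xist and 374 of the Y-linked Ddx3y, against 2803 to 5019 UMIs of Xist and 0 of Ddx3y in each tumor library. Sex and tumor therefore cannot be told apart in the comparison with healthy brain, which bears most directly on the X-linked Tlr7, Tlr8 and Tlr13. The split was less complete in some other lineages. T cells of healthy brain held 17 UMIs of Xist beside 37 of Ddx3y, and B cells of IgG and depletion held 6 and 7 of Ddx3y. The source of these UMIs was not tested.

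The 4 libraries kept 1388, 1434, 1763 and 3706 cells with a median of 5060, 5853, 5655 and 4359 UMIs, in the order healthy brain, then IgG, then anti-CTLA-4, then depletion (UMIs are unique molecular identifiers, each standing for 1 captured mRNA molecule). Libraries shared 6 of their 8285 distinct cell barcodes. Cells were grouped into 22 clusters without the 10 genes and without the 52 pathway genes described further on, and the clusters were named from marker genes. Of the 9 lineages, microglia-like cells numbered 792, 296, 211 and 532 in that order, and all 12 microglia markers were detected in them. Macrophage-like cells, with all 14 markers of monocyte-derived macrophages detected in each tumor library, numbered 11, 256, 257 and 728. The other lineages were classical monocytes, patrolling monocytes, neutrophils, dendritic cells of the type 2 kind, B cells, NK cells and T cells, each so named from its likeness in transcripts. No cluster of plasmacytoid or type 1 dendritic cells separated. The classical monocyte cluster had 1 monocyte marker among its 10 leading genes (F13a1, Lyz2 and Vcan were among them) and as many of each of 2 other lists. Its name rests on the detection of 9 of 9 monocyte markers in at least 10% of its cells. Other lists were not counted in this way, so this detection does not tell the name from others.

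The level of a gene is its UMIs summed over the cells of a lineage and library, divided by all UMIs of those cells and given per 1000000 (CPM). Levels are given where a lineage held at least 30 cells in a library, and values of the 4 libraries always stand in the order just given. Cd4, the transcript of the protein that the depleting antibody binds, stood in T cells at 79.2, 139.6, 134.5 and 7.40 CPM, lowest in depletion. In all kept cells together the members ranged from 101 UMIs (Tlr9) to 5343 UMIs (Cd14). At least 1 UMI of any of the 9 receptors was found in 75.7% to 83.2% of microglia, 76.6% to 87.5% of macrophages and 73.7% to 80.0% of patrolling monocytes, against 5.60% to 9.93% of T cells and 1.79% to 6.13% of NK cells. With each cell thinned to 1000 UMIs these shares were 35.8% to 39.3% in microglia, 21.6% to 26.0% in macrophages, 18.2% to 28.9% in patrolling monocytes, 1.42% to 2.03% in T cells and 0.746% to 1.23% in NK cells. Classical monocytes held 82.0% to 87.5% before thinning and 6.25% to 24.5% after it. Neutrophils held 45.0% to 61.7% and then 15.8% to 40.4%. Dendritic cells held 44.8% to 68.1% and then 8.51% to 11.3%, and B cells 12.8% to 31.4% and then 3.88% to 8.82%. NK cells had the lowest share in each tumor library, and whether that share is background was not tested.

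**Figure D1:**
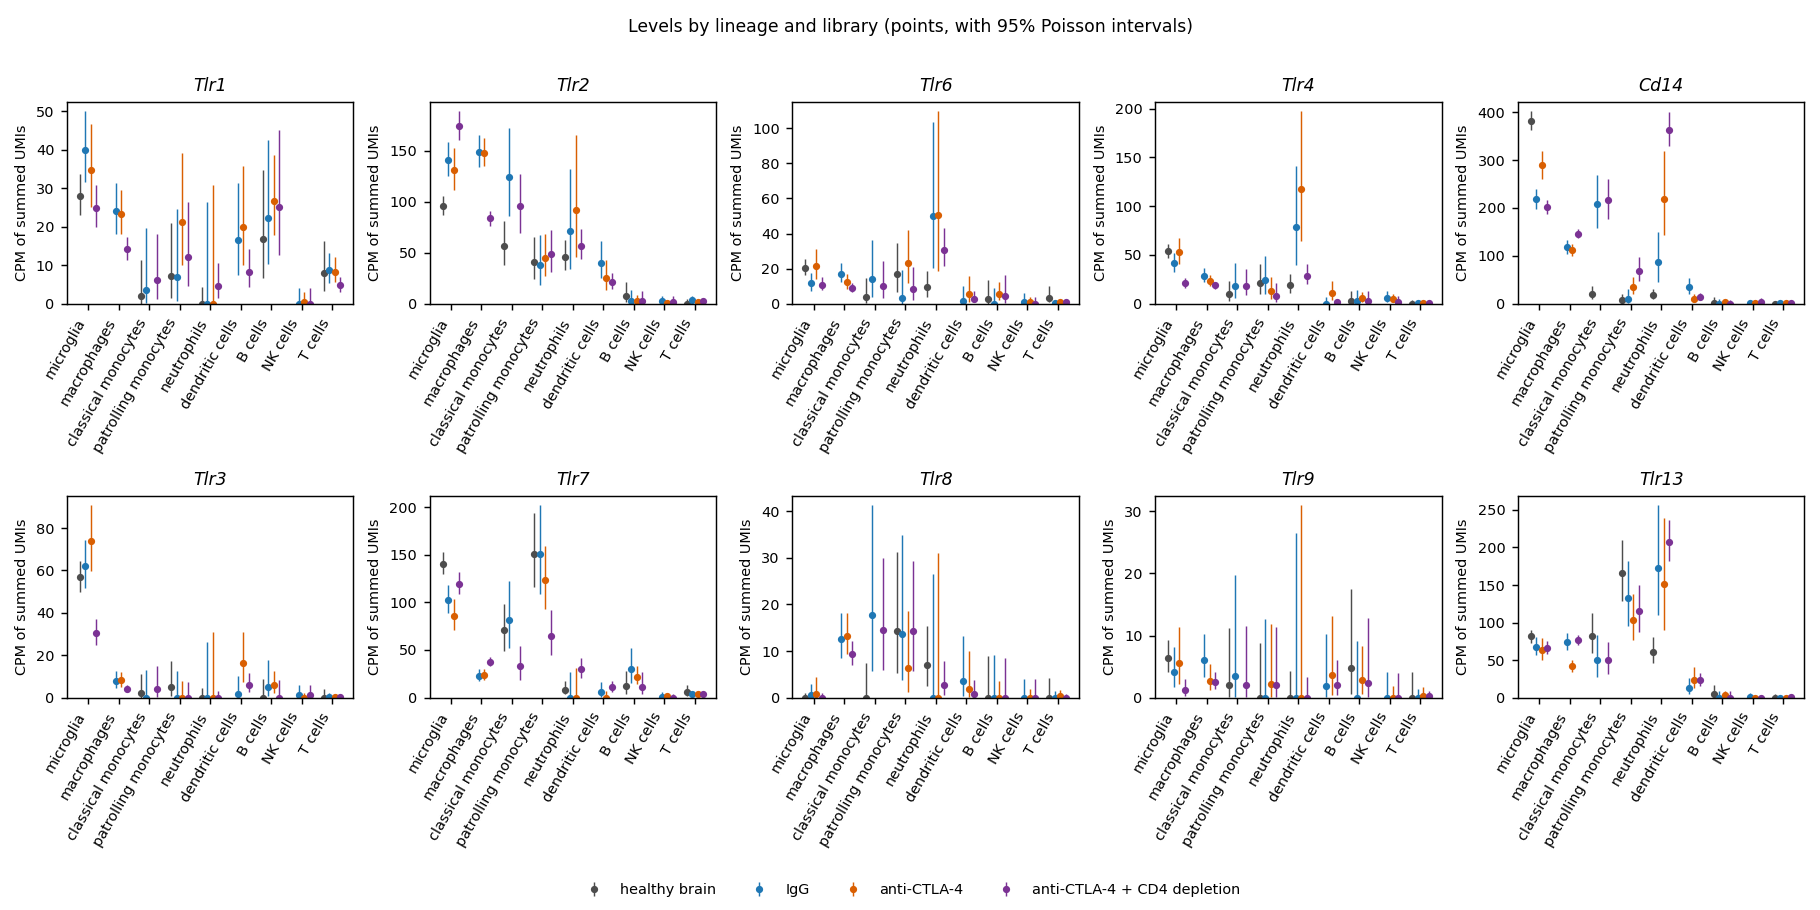
CPM (linear axes, each panel with its own range) of the 10 genes in 9 lineages with at least 30 cells; points are libraries and bars are exact Poisson 95% intervals. Tlr3 stands out in microglia, Tlr8 is near 0 in microglia, Tlr7 and Tlr13 are high in patrolling monocytes, and Cd14 in neutrophils runs from 18.8 in healthy brain to 363 in depletion.

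Tlr2, the shared partner of the lipoprotein receptors, lies on chromosome 3 (83836272 to 83841767, minus strand, GRCm38). In microglia it stood at 96.0, 141, 131 and 174 CPM, and in macrophages of the tumor libraries at 149, 148 and 83.8 CPM. Microglia of the depletion library were highest and macrophages of that library lowest, with intervals of 160.2 to 188 and 76.7 to 91.4 CPM, whereas in the IgG and anti-CTLA-4 libraries the intervals of both lineages overlapped. Classical monocytes held 56.4 CPM in healthy brain, 124 in IgG and 95.3 in depletion. Neutrophils ranged from 45.9 to 92.3 CPM, patrolling monocytes from 37.6 to 48.7 CPM and dendritic cells from 21.2 to 40.3 CPM. B cells, NK cells and T cells stayed at 7.23 CPM or less.

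Tlr1 and Tlr6, the partners of Tlr2, are neighbours on chromosome 5 (Tlr1 at 64924679 to 64933563, Tlr6 at 64952031 to 64960097, both minus strand). They are close copies: 19.5% of the 31-base words of Tlr1 transcripts and 16.3% of those of Tlr6 occurred in the other gene, and within the last 500 bases, where 3′ libraries take most reads, 6.58% and 0%, so some reads of the pair may have been lost or moved. Tlr1 in microglia was 28.0, 40, 34.7 and 24.9 CPM and in macrophages of the tumor libraries 24.1, 23.4 and 14.1 CPM. Tlr1 was also found in lymphocytes. B cells held 16.9, 22.3, 26.7 and 25.2 CPM, which overlapped the microglia value within counting error in each library, and T cells held 7.92, 8.68, 8.37 and 4.74 CPM. Among T cells a cluster led by Foxp3, the transcription factor of regulatory T cells, held 19.8, 22.7 and 13.5 CPM in the tumor libraries, on 15, 16 and 10 UMIs. NK cells had 0, 1 and 0 UMIs of Tlr1 in the 3 tumor libraries, and neutrophils had 0 UMIs in healthy brain, IgG and anti-CTLA-4 and 5 in depletion. Tlr6 was low: 20.5, 11.8, 21.3 and 10.8 CPM in microglia, and 9.42, 50.2, 50.4 and 30.7 CPM in neutrophils, where the IgG and anti-CTLA-4 values rest on 7 and 6 UMIs.

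Tlr4, the lipopolysaccharide receptor on chromosome 4 (66827584 to 66930284, plus strand), stood at 53.9, 41.6, 52.8 and 21.1 CPM in microglia. The depletion value lay below the other 3, and its interval (16.5 to 26.6 CPM) met none of theirs. Neutrophils held 18.8, 78.9, 117 and 28.9 CPM and were the highest lineage in the 3 tumor libraries, although their intervals overlapped those of microglia in all 3; the widest, in anti-CTLA-4, reached from 64.2 to 197 CPM on 14 UMIs. Macrophages of the tumor libraries held 28.9, 23.1 and 18.9 CPM. Tlr4 was at most 10.9 CPM in dendritic cells and at most 5.73 CPM in B cells. NK cells of the tumor libraries held 5.52, 5.27 and 2.15 CPM, on 5, 10 and 2 UMIs.

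Cd14, a membrane-anchored protein that loads lipopolysaccharide onto the complex of Tlr4 and Ly96, lies on chromosome 18 (36725067 to 36726798, minus strand). Microglia held 382, 218, 289 and 201 CPM, and 622 of 792 healthy microglia had a UMI. In healthy brain no other lineage with at least 30 cells exceeded 20.2 CPM. In the tumor libraries Cd14 was spread over more myeloid lineages. Classical monocytes held 20.2 CPM in healthy brain (10 UMIs), 209 in IgG (59 UMIs) and 216 in depletion (104 UMIs). Neutrophils held 18.8, 86.1, 218 and 363 CPM, on 16, 12, 26 and 402 UMIs. Macrophages of the tumor libraries held 118, 112 and 147 CPM, and patrolling monocytes 7.19, 10.3, 34.0 and 69.1 CPM. In depletion the neutrophil value lay above that of every other lineage shown, with an interval of 328 to 400.1 CPM against 186 to 217 CPM in microglia. B cells, NK cells and T cells stayed at 4 UMIs or fewer per library, except for 7 UMIs in 1197 T cells of the depletion library.

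Tlr3, the receptor for double-stranded RNA on chromosome 8 (45395665 to 45411080, minus strand), was the member whose microglia interval lay above that of every other lineage in each of the 4 libraries. Microglia held 56.8, 62.1, 74.1 and 30.5 CPM. Macrophages of the tumor libraries held 7.87, 8.14 and 3.94 CPM, and their summed microglia markers were 1013, 672 and 625 CPM against 14911, 19608 and 11966 CPM in microglia. The part of those markers in the macrophage values of Tlr3 was not tested. Neutrophils had 0 UMIs of Tlr3 in all 4 libraries, which in the deepest, depletion, allows up to 2.71 CPM. Dendritic cells held 1.83, 16.3 and 6.16 CPM in the tumor libraries on 1, 9 and 9 UMIs. Tlr3 overlaps the antisense gene Gm45542, whose reads could not be told apart if counting ignored strand.

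Tlr7 and Tlr8, receptors for single-stranded RNA, are neighbours on chromosome X (Tlr7 at 167304929 to 167330558, Tlr8 at 167242696 to 167264329, both minus strand) and had unlike patterns. Tlr7 was highest in patrolling monocytes and microglia. Patrolling monocytes held 151, 150.3, 123 and 65.0 CPM and microglia 141, 103, 86.0 and 119.6 CPM. Their intervals overlapped in healthy brain, IgG and anti-CTLA-4, and microglia were higher in depletion. Macrophages of the tumor libraries held only 22.7, 23.7 and 37.4 CPM of Tlr7, and each interval lay below that of microglia. B cells held 12.1, 29.8, 22.0 and 11.5 CPM. Tlr8 showed the opposite split: microglia had 0, 1, 1 and 0 UMIs, and macrophages of the tumor libraries had 29, 39 and 57 UMIs, or 12.7, 13.2 and 9.36 CPM. For 0 of 792 healthy microglia with a Tlr8 UMI, counting alone allows up to 0.379% of cells with a UMI, which is no limit on the share of cells that express it. Patrolling monocytes held 14.4, 13.7, 6.37 and 14.2 CPM of Tlr8, and classical monocytes 0 CPM in healthy brain, 17.7 in IgG and 14.5 in depletion. In the tumor libraries their intervals overlapped that of macrophages.

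Tlr9, which senses unmethylated CpG DNA, lies on chromosome 9 (106222598 to 106226883, plus strand) and was close to the limit of detection everywhere. Microglia held 6.34, 4.10, 5.52 and 1.17 CPM on 26, 8, 7 and 4 UMIs, macrophages of the tumor libraries 6.12, 2.71 and 2.46 CPM, and B cells 2, 0, 3 and 1 UMIs. Neutrophils and NK cells had 0 UMIs in every library shown. Neighbours in the order of levels overlapped in every library. Away from neighbours, the interval of microglia lay above that of T cells in IgG and anti-CTLA-4 and above that of NK cells in anti-CTLA-4. That of macrophages lay above that of T cells in IgG and depletion.

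Tlr13, a receptor for bacterial ribosomal RNA that mice have and humans lack, lies on chromosome X (106143204 to 106160493, plus strand). Patrolling monocytes held 165, 133, 104 and 116 CPM, microglia 81.4, 67.7, 63.9 and 66.0 CPM, and macrophages of the tumor libraries 73.9, 41.7 and 76.2 CPM. Neutrophils held 61.2, 172, 151 and 208 CPM and were the highest lineage in the 3 tumor libraries, with an interval apart from that of patrolling monocytes in depletion only. In healthy brain patrolling monocytes were highest and their interval (129 to 209 CPM) lay above that of the next lineage. NK cells and T cells had at most 5 UMIs per library.

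Promoter sequences are shown for Tlr2, whose ratio with depletion lay on opposite sides of 1 in microglia and macrophages (values below), and for the pair with the least alike patterns, Tlr3 and Tlr8. Each runs 5′ to 3′ on the strand of the gene from 250 bases before to 50 after the start that RefSeq gives (GRCm38.p6); capitals mark matches to the motifs searched. For Tlr2 and Tlr3 that start lies inside the gene span of GENCODE. The regions are chr3:83841559-83841858, chr8:45410331-45410630 and chrX:167264280-167264579, all on the minus strand.
Tlr2: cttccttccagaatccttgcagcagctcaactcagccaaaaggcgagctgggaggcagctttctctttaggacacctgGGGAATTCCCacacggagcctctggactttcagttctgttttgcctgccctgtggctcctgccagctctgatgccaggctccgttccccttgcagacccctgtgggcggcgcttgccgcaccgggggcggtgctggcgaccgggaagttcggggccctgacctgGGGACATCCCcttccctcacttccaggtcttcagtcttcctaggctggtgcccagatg
Tlr3: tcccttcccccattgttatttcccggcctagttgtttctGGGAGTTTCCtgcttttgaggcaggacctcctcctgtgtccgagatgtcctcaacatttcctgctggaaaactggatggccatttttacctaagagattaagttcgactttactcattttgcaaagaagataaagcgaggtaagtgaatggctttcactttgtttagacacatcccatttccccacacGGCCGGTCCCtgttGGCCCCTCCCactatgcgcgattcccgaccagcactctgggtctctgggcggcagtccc
Tlr8: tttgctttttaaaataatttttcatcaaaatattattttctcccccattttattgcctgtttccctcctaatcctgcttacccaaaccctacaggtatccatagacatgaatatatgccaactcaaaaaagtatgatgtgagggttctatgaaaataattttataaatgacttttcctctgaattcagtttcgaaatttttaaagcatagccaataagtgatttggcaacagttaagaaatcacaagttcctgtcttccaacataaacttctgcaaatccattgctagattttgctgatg
Searched on both strands were the core of PU.1, a transcription factor of myeloid cells (GAGGAAGT), the interferon-stimulated response element (GAAA, then any 2 bases, then GAAA) and NF-kappaB (GGGA, then any 4 bases, then CC). They occurred in 3.20%, 3.44% and 20.7% of 32851 RefSeq promoters of the same length. The Tlr2 window held GGGAATTCCC at -172 and GGGACATCCC at -8 relative to the start, each matching NF-kappaB on both strands. The Tlr3 window held 1 NF-kappaB match on its own strand, GGGAGTTTCC at -211, and 2 on the opposite strand, starting at -23 and -9. No motif searched was in the window of Tlr8 or Tlr13. Of the other members with a promoter given, Tlr9 held the PU.1 core on the opposite strand at 11. Tlr1 held GAGGAAGT at -23 in 1 window. Tlr6 held 2 overlapping interferon-element matches on the opposite strand at -116 and -110 in 1 window. A second start was given for Tlr1 and for Tlr6, and its window held 0 matches. The Tlr6 window with matches (64959117 to 64959416) lay inside the gene span of GENCODE. A match describes letters only.

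The comparison of IgG-treated tumors with healthy brain asks how the members differ in the presence of the tumor. A gene was called higher or lower where its UMIs in the lineage summed to 50 or more over the libraries compared and its CPM differed at least 2-fold, and a lineage was compared where both libraries held at least 50 of its cells. In microglia 8 of the 10 members had enough UMIs (Tlr8 and Tlr9 did not) and 0 were called, against 4.64% of 8530 tested genes called higher and 10.9% called lower. The median log2 ratio was -0.32 for both the 8 members and all genes tested. Cd14 had a ratio of 0.571 (0.512 to 0.636), Tlr6 0.576 (0.347 to 0.923), Tlr7 0.729 (0.618 to 0.858) and Tlr4 0.771 (0.590 to 0.999), while Tlr2 had 1.47 (1.25 to 1.72) and Tlr1 1.43 (1.06 to 1.92). The intervals of Tlr3 (ratio 1.09) and Tlr13 (0.832) included 1. Averaging the CPM of single cells instead put the ratio of Tlr6 at 1.12, on the other side of 1. Median-of-ratios scaling put the centre of all log2 ratios here at -0.26, and relative to that centre Cd14 had a ratio of 0.682 and Tlr2 of 1.75. On that scale the intervals of Tlr6, Tlr7 and Tlr4 included 1, and that of Tlr3 lay above 1. Different clusters held most microglia in these libraries: one led by P2ry12 held 709 of 792 in healthy brain and 7 of 296 in IgG, and one led by C4b held 80 and 219.

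Within the C4b-led cluster alone, Cd14 had a ratio of 0.538 (0.420 to 0.697), close to the value over all microglia, and Tlr2 had 1.64, with an interval just above 1. Tlr1, Tlr3 and Tlr7 had ratios of 1.62, 1.05 and 0.892 with intervals that included 1. Tlr4 and Tlr13 lay on the other side of 1 than over all microglia, at 1.26 (0.582 to 3.24) and 2.17 (0.964 to 6.03), on 7 and 6 UMIs in healthy brain and with intervals that included 1. Healthy cells of that cluster had a median of 1505 UMIs against 5992 in IgG. Summed microglia markers in microglia stood at 36948 CPM in healthy brain and 14911 CPM in IgG, with 12 of 12 detected in both, and summed macrophage markers stood at 842 and 3062 CPM, with Arg1 at 0 in healthy brain. Whether these differences have a part in the member ratios was not tested. In patrolling monocytes only Tlr7 (ratio 0.995, 0.661 to 1.49) and Tlr13 (0.805, 0.529 to 1.21) had enough UMIs, and neither was called, against 1.28% of genes called higher and 1.87% lower. In B cells and T cells no member had enough UMIs.

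Classical monocytes and neutrophils held 49 and 169 cells in healthy brain and 32 and 49 in IgG, under the minimum of 50. With a minimum of 30 cells, chosen after seeing the data, Cd14 was called higher in classical monocytes of IgG, with a ratio of 10.4 (5.26 to 22.7), and so was Tlr2 (2.19, 1.30 to 3.75). The background there was 3.86% of 2176 genes called higher and 3.22% lower. Summed neutrophil markers in these classical monocytes were 7133 CPM in healthy brain, with 13 of 13 detected, and 230.0 CPM in IgG, with 5 of 13 detected and Ly6g, Camp and Ltf among those at 0. Summed classical monocyte markers were 13237 and 12255 CPM. Tlr13 was called higher in neutrophils of IgG (ratio 2.81, 1.66 to 4.64), where 34.8% of 2141 tested genes were called higher and 14.7% lower. Neutrophils of these libraries came from different clusters: 168 of 169 in healthy brain from one led by Ltf, Mmp8 and Ngp, genes of neutrophil granules, and 46 of 49 in IgG from one led by Igfbp6 and Cxcr2.

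**Figure D2:**
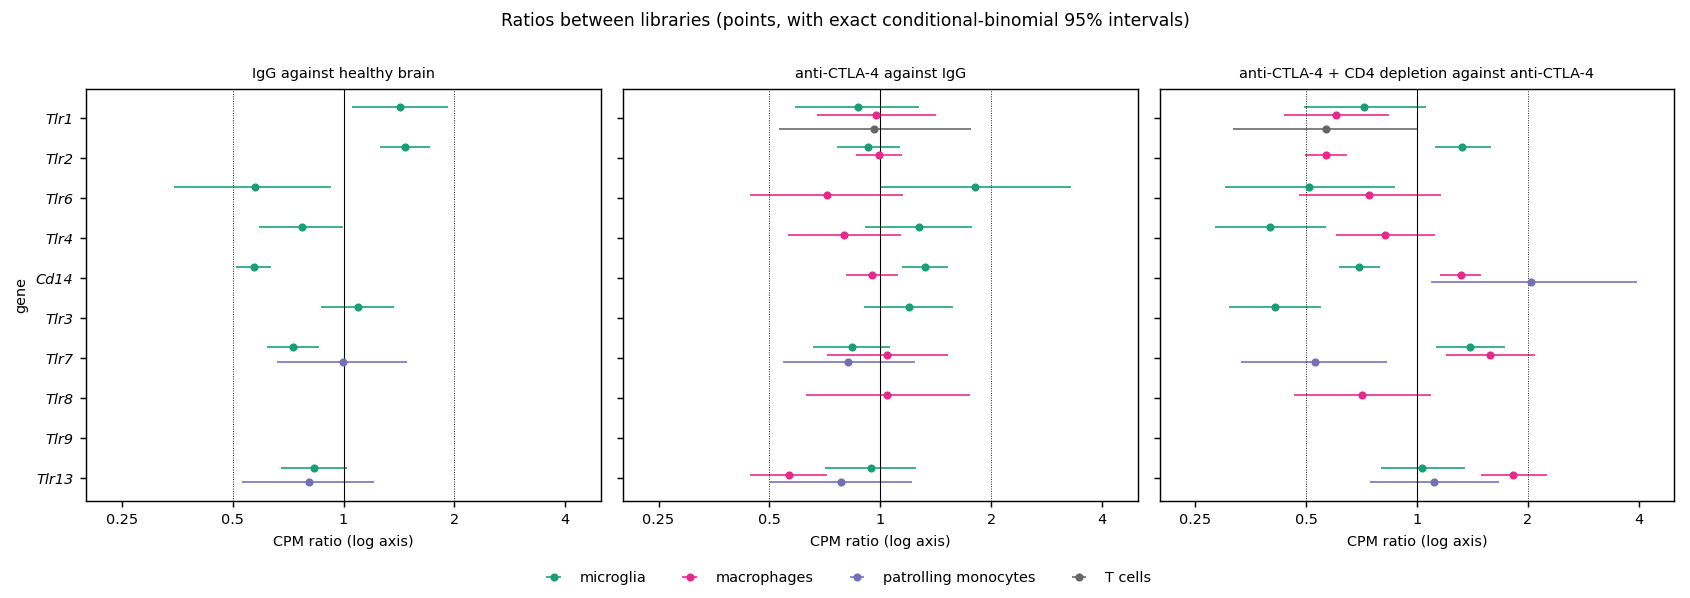
Ratio of CPM between libraries (log axis) for members and lineages that met the minimum of 50 UMIs and 50 cells; bars are exact conditional-binomial 95% intervals, the solid line marks 1 and the dotted lines 0.5 and 2. In depletion against anti-CTLA-4, Tlr3 (0.411) and Tlr4 (0.400) in microglia lie left of 0.5 and Cd14 in patrolling monocytes (2.03) just right of 2, whereas the other panels hold no point outside the dotted lines.

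Anti-CTLA-4 against IgG asks what checkpoint blockade changed in the tumor-bearing brain. None of the members with enough UMIs was called, and in B cells and NK cells no member had enough: 0 of 8 with enough UMIs in microglia, where 0.586% of 6488 genes were called higher and 1.14% lower, and 0 of 8 in macrophages, where 0.631% of 6969 were higher and 1.13% lower. In patrolling monocytes it was 0 of 2 (1.51% higher and 0.346% lower of 2311), and in T cells 0 of 1, Tlr1 (0.467% higher and 0.521% lower of 7490). The macrophage ratio farthest from 1 was that of Tlr13, 0.564 (0.444 to 0.716), from 169 UMIs in IgG and 123 in anti-CTLA-4. In the thinned cells this ratio was 0.98. Tlr2, Cd14 and Tlr8 in macrophages had ratios of 0.994, 0.948 and 1.04, each with an interval that included 1. In microglia Cd14 had a ratio of 1.32 (1.15 to 1.53), and the other 7 had intervals that included 1, from 0.838 for Tlr7 to 1.80 for Tlr6.

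Depletion of CD4 T cells on top of anti-CTLA-4, against anti-CTLA-4 alone, gave the calls that members met in lineages with at least 50 cells. This comparison shares the anti-CTLA-4 library with the one before, so their ratios are not independent. In microglia Tlr3 fell from 74.1 to 30.5 CPM (94 and 104 UMIs, ratio 0.411, 0.308 to 0.550) and Tlr4 from 52.8 to 21.1 CPM (67 and 72 UMIs, ratio 0.400, 0.282 to 0.566). These were 2 of 8 members with enough UMIs, where 5.85% of 7351 genes were called lower and 4.37% higher. The median log2 ratio was -0.50 for the 8 members and -0.10 for all genes tested. Tlr6 lay close to the limit, at 0.510 (0.302 to 0.870). Cd14 had 0.697 (0.613 to 0.793), whereas Tlr2 and Tlr7 lay above 1, at 1.33 (1.12 to 1.59) and 1.39 (1.12 to 1.74). Tlr13 was at 1.03. Ratios of both surface and endosomal receptors thus lay on both sides of 1.

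The clusters of microglia differed between these libraries, and the calls did not hold within the cluster that both shared most. In anti-CTLA-4, 163 of 211 microglia were in the C4b-led cluster, 32 in the P2ry12-led cluster and 16 in a cluster led by Cxcl13, a chemokine, and Spp1, osteopontin. In depletion, 162 of 532 were in the first, 23 in the second and 347 in the third. Within the C4b-led cluster Tlr3 stood at 69.4 and 51.5 CPM (ratio 0.742, 0.507 to 1.08) and Tlr4 at 50.1 and 30.9 CPM (0.616, 0.380 to 0.984), and Cd14 had a ratio of 0.968 (0.818 to 1.15). Within the P2ry12-led cluster Tlr3 stood at 112 and 32.0 CPM (ratio 0.287, 0.054 to 0.976) on only 19 and 3 UMIs, and Tlr4 at 82.2 and 64.1 CPM on 14 and 6. The Cxcl13-led cluster of the depletion library held 21.7 CPM of Tlr3 and 15.4 CPM of Tlr4, and that of the IgG library held 16.4 CPM of each, on 70 cells with a median of 899 UMIs. Of the 121 Tlr3 and 81 Tlr4 UMIs in IgG microglia, 114 and 74 were in the C4b-led cluster, so these IgG values rest on few UMIs. The Cd14 level of the Cxcl13-led cluster was 162 and 171 CPM in depletion and IgG. Summed microglia markers in all microglia were 19608 CPM in anti-CTLA-4 and 11966 CPM in depletion, with 12 of 12 detected in both, and macrophage markers 2449 and 3281 CPM, with 14 of 14 detected. The part of these in the ratios was not tested.

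**Figure D3:**
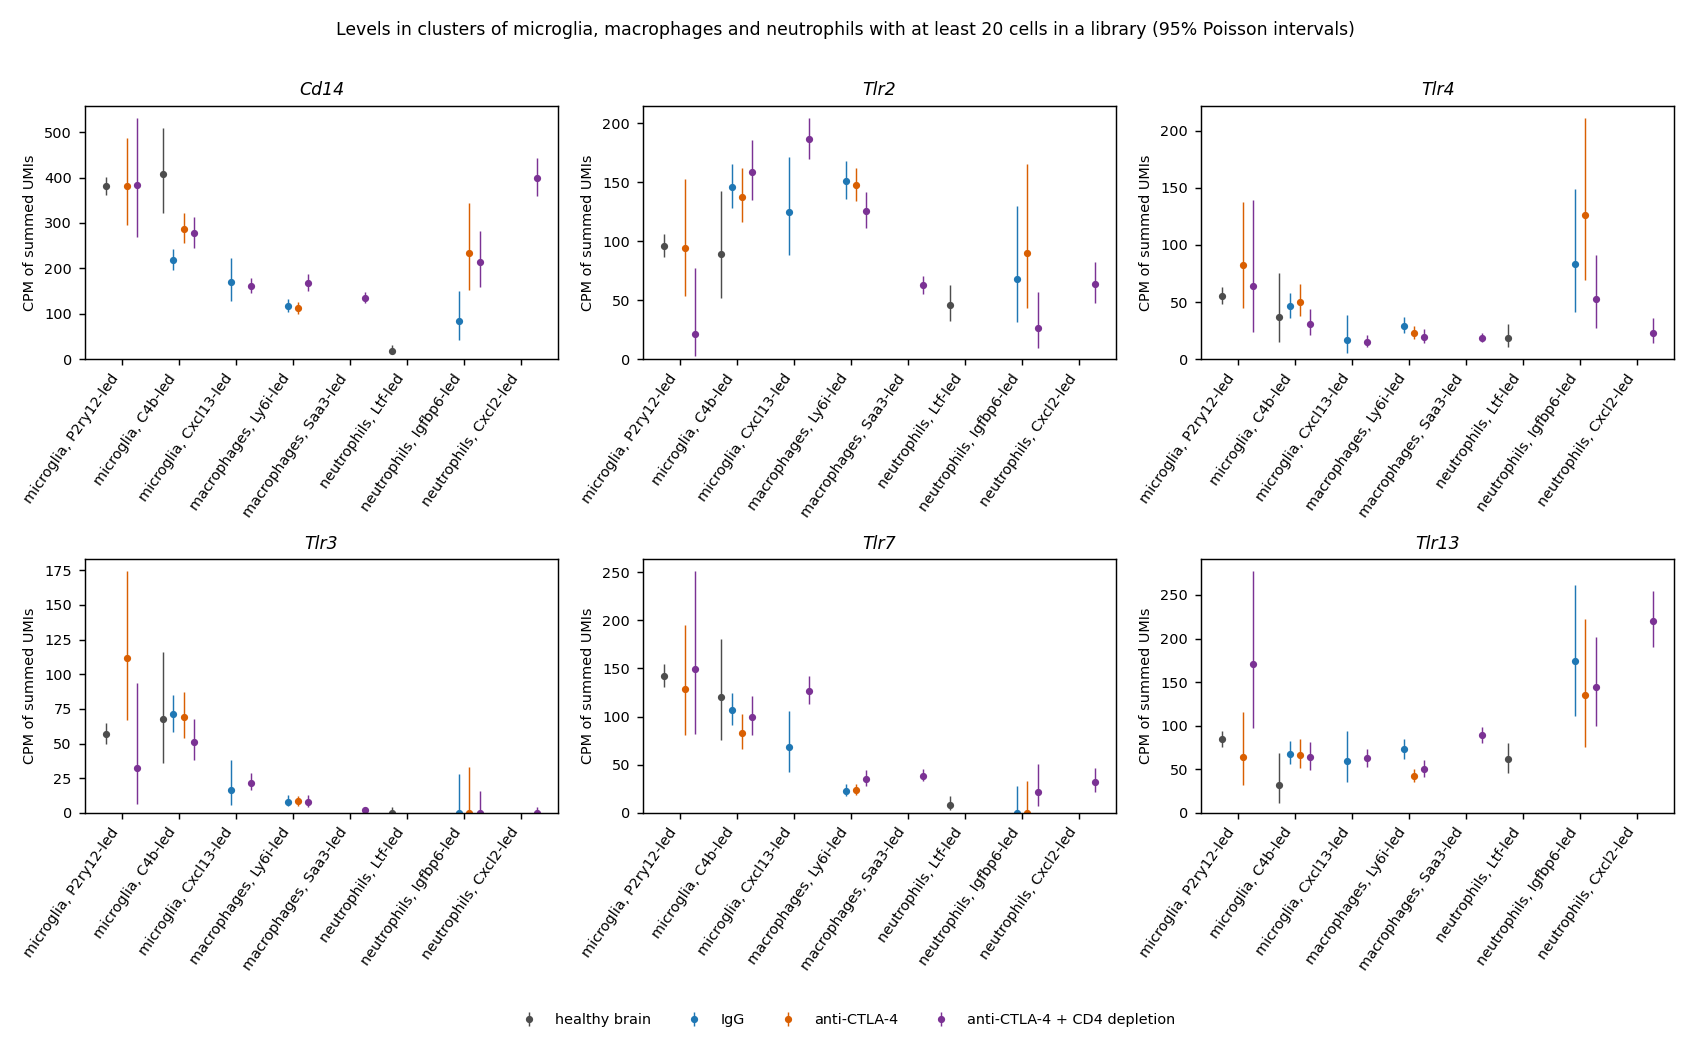
CPM (linear axes) of 6 members in the clusters that make up microglia, macrophages and neutrophils, for clusters with at least 20 cells in a library; points are libraries and bars are exact Poisson 95% intervals. The points of Tlr3 and Tlr4 are lower in the Cxcl13-led than in the C4b-led microglia in both libraries that hold them, on few UMIs in IgG. Cd14 in neutrophils runs from 18.9 in the Ltf-led cluster of healthy brain to 399 in the Cxcl2-led cluster of depletion.

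In macrophages 8 members had enough UMIs and 0 were called, against 4.44% of 8026 genes called higher and 5.31% lower. Tlr13 had a ratio of 1.83 (1.49 to 2.25), Tlr7 1.58 (1.20 to 2.09) and Cd14 1.31 (1.16 to 1.49), and Tlr2 had 0.565 (0.496 to 0.644) and Tlr1 0.604 (0.435 to 0.841). The anti-CTLA-4 value of Tlr13 (41.7 CPM) lay below those of both IgG (73.9 CPM) and depletion (76.2 CPM). Macrophages too came from different clusters. One led by Ly6i with Arg1 and Cxcl9 held 256 of 257 in anti-CTLA-4 and 268 of 728 in depletion, and one led by Saa3, an acute-phase protein, held 460 in depletion and 1 in anti-CTLA-4. Within the Ly6i-led cluster the ratio of Tlr2 was 0.852 (0.728 to 0.997), that of Tlr13 1.20 (0.917 to 1.57) and that of Cd14 1.5 (1.29 to 1.75). The Saa3-led cluster held 62.6 CPM of Tlr2, 89.3 of Tlr13 and 136 of Cd14. Summed neutrophil markers in macrophages were 351 CPM in anti-CTLA-4, with Ly6g, Camp and Ngp at 0, and 4202 CPM in depletion, with 13 of 13 detected, and their part was not tested.

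In patrolling monocytes Cd14 was called higher with depletion, from 34.0 to 69.1 CPM (16 and 34 UMIs, ratio 2.03, 1.09 to 3.95). It was 1 of 3 members with enough UMIs, where 1.84% of 2822 genes were called higher and 1.81% lower. Averaging the CPM of single cells gave a ratio of 1.44 and a clustering resolution of 0.5 a ratio of 1.73, each of which ended the call, and in thinned cells Cd14 had too few UMIs. Summed neutrophil markers in patrolling monocytes were 1195 CPM in anti-CTLA-4, with 6 of 13 detected, and 6918 CPM in depletion, with 12 of 13 detected, and summed classical monocyte markers were 5809 and 6000 CPM. Their part in the Cd14 ratio was not tested. Tlr7 in patrolling monocytes had a ratio of 0.528 (0.332 to 0.827) and Tlr13 1.11 (0.746 to 1.67). In T cells Tlr1 had 0.567 (0.317 to 1.01), with 1.05% of 8217 genes called higher and 2.30% lower. The Foxp3-led cluster, which held the most Tlr1 per UMI of the T cell clusters compared, made up 147 of 535 T cells in anti-CTLA-4 and 191 of 1197 in depletion, and the part of this in the ratio was not tested. Neutrophils held 47 cells in anti-CTLA-4 and were therefore not compared under the minimum of 50. There Cd14 had a ratio of 1.66 (1.12 to 2.58), under the 2-fold limit, where 13.3% of 3382 genes were called higher and 8.31% lower, and within the Igfbp6-led cluster, with 43 and 110 cells, it was 0.912 (0.556 to 1.53). The Cxcl2-led cluster, which held 386 of the 504 neutrophils of depletion and no more than 1 cell of any other library, held 399 CPM of Cd14 and 221 CPM of Tlr13.

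Beyond the members, 52 genes of the receptor pathway were followed, all of them in the table: adaptors, co-receptors of lipopolysaccharide, chaperones and endosomal proteases, kinases and ubiquitin ligases, transcription factors, inhibitors and the remaining receptors. In microglia of IgG against healthy brain 7 of the 43 with enough UMIs rose and 3 fell, where 4.64% and 10.9% of all genes did. The 4 with the largest log2 ratios were Cd36, a scavenger receptor that assists Tlr2, from 1.22 to 118 CPM (5 and 230 UMIs, ratio 96.8, 40.9 to 301), Irf7, a transcription factor downstream of Tlr7 and Tlr9, from 7.80 to 103 CPM, Socs1, a feedback inhibitor of cytokine signalling, from 6.58 to 65.7 CPM, and Tab2, a partner of the kinase Tak1, which fell from 249 to 114 CPM. Tab2 had a ratio of 0.459, and the 3 calls of lower genes ended relative to the centre of all ratios, where Tab2 was 0.548. Of the 7 that rose, Ctsb, Tnip1, Nfkbia and Nfkbiz had ratios of 2.13, 2.07, 2.10 and 2.03. With the averaged CPM of single cells these were 1.91, 1.44, 1.66 and 1.26, which ended each call. The median log2 ratio of the 43 was -0.08. In T cells 7 of 27 rose and 1 fell, where 12.1% of 5995 genes were higher and 2.04% lower. Among these Ly86, a partner of the receptor-like protein Cd180, rose from 2.26 to 22.9 CPM on 2 and 58 UMIs, Socs1 from 67.9 to 231 CPM, Nfkbiz from 11.3 to 39.0 CPM and Tnfaip3, an inhibitor of NF-kappaB signalling, from 18.1 to 56.4 CPM. Whether transcripts carried over from other cells had a part in the Ly86 values was not tested. Rela was also called (ratio 2.03), a call that ended without doublet removal (1.91). T cells of these libraries came from different clusters. One led by Dapl1 and Lef1 held 121 of 141 in healthy brain and 95 of 412 in IgG, and the Foxp3-led one held 5 and 162. The part of this in the T cell ratios was not tested. Socs1 rose in B cells too, from 14.5 to 156 CPM on 6 and 63 UMIs, as 1 of 14, where 2.45% of 2037 genes were higher, and Rel, a subunit of NF-kappaB, rose in patrolling monocytes from 137 to 284 CPM as 1 of 20, where 1.28% of all genes rose, a call that ended without doublet removal (ratio 1.83). Anti-CTLA-4 against IgG moved few. Nfkbiz, a regulator of NF-kappaB, fell in microglia from 40 to 14.2 CPM (ratio 0.355, 0.20 to 0.598) as 1 of 35, where 1.14% of all genes fell. Socs1 rose in macrophages from 209.9 to 448 CPM (ratio 2.14, 1.92 to 2.38) as 1 of 43, where 0.631% of all genes rose. The microglia values of Nfkbiz rest on 78 and 18 UMIs. Nfkbiz also fell in patrolling monocytes, from 150.3 to 74.3 CPM, as 1 of 22 (0.346% of all genes), and Lgmn, an endosomal protease, fell in T cells (29.6 CPM in IgG, ratio 0.475, 0.322 to 0.693) as 1 of 37 (0.521% of all genes). Each of these 4 calls ended under a setting tried: Socs1 without doublet removal (1.97), Nfkbiz with the averaged CPM of single cells (0.529 in microglia and 0.546 in patrolling monocytes) and Lgmn without doublet removal (0.631). A part of transcripts from other cells in the Lgmn values of T cells was not tested.

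With depletion against anti-CTLA-4, 1 of 41 pathway genes with enough UMIs rose in microglia and 2 fell, where 4.37% and 5.85% of all genes did. Nfkbiz rose from 14.2 to 41.1 CPM (ratio 2.89, 1.76 to 5.02). This rise and the fall of Nfkbiz against IgG share the same anti-CTLA-4 value. Socs1 fell from 57.6 to 28.4 CPM (ratio 0.494, and 0.558 relative to the centre of all ratios, which ended the call), and Tlr12, an endosomal receptor for profilin, fell from 63.9 to 15.5 CPM (81 and 53 UMIs, ratio 0.243, 0.169 to 0.348). Tlr12 stood at 38.3, 44.6, 63.9 and 15.5 CPM in microglia and at 8.51 CPM or less in macrophages. In macrophages 3 of 44 rose and 6 fell, where 4.44% and 5.31% of all genes did. Socs1 fell from 448 to 81.3 CPM, Tnip3, an inhibitor of NF-kappaB signalling, from 64.4 to 15.9 CPM, and Cd36 from 9.83 to 3.45 CPM, while Ctsl, an endosomal protease that cuts Toll-like receptors, rose from 152 to 436 CPM. Of these, the fall of Socs1 had a ratio of 0.181 (0.163 to 0.201). Other calls in macrophages were Ticam1 (ratio 0.469), Nfkb1 (0.481), Traf6 (2.17) and Lgmn (2.29), and each ended under a setting tried. With the averaged CPM of single cells Ticam1 had 0.529 and Nfkb1 0.527. Traf6 had 1.99 without doublet removal, and Lgmn 1.92 in thinned cells. Socs1 also fell in patrolling monocytes, from 82.8 to 30.5 CPM (39 and 15 UMIs), as 1 of 24 where 1.81% of genes were lower, and in B cells, from 246 to 75.7 CPM, as 1 of 19 where 2.30% of 3093 genes were lower. Rel rose in B cells from 105 to 213 CPM, where 1.49% were higher, a call that ended relative to the centre of all ratios (1.83). In NK cells Ly86 fell from 24.2 to 8.61 CPM (46 and 8 UMIs) as 1 of 27, where 1.78% of 5497 genes were lower. A part of transcripts from other cells in these Ly86 values was not tested. In T cells Tnip3 fell from 10.2 to 4.55 CPM as 1 of 38, near the 2.30% of all genes that were lower. Without doublet removal Tnip3 in T cells had a ratio of 0.514, and with the averaged CPM of single cells Cd36 in macrophages had 0.636 and Socs1 in patrolling monocytes 0.573, each under the 2-fold limit.

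The shared adaptor Myd88 was low in microglia, at 47.5, 42.1, 37.9 and 28.4 CPM, and highest in neutrophils, at 119, 222, 243 and 195 CPM. Macrophages of the tumor libraries held 112, 130.2 and 90.2 CPM of Myd88. Ticam1, the adaptor of Tlr3, stood at 11.2, 14.4, 15 and 9.68 CPM in microglia. Unc93b1, without which the endosomal receptors stay in the endoplasmic reticulum, was detected in all of these lineages: microglia held 1008, 837, 1039 and 583 CPM, macrophages of the tumor libraries 537, 491 and 336 CPM, B cells 374, 283, 290.3 and 239 CPM, and T cells 26.9 CPM or less. Ly96, the partner that binds lipopolysaccharide beside Tlr4, held 71.7, 52.3, 48.1 and 34.6 CPM in microglia. Irak3, an inhibitor of the kinases below Myd88, was at most 3.23 CPM in microglia and between 17.9 and 23.4 CPM in macrophages of the tumor libraries.

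Among the members, the pair with the highest Pearson correlation of log2(CPM + 5) over 27 sums of a lineage in a library was Tlr2 and Cd14 (0.92), and the lowest was Tlr3 and Tlr8 (-0.14). The sums share libraries and lineages, so these values describe and were not tested. The genes of the table most like each member were, among 9858 with at least 200 UMIs, Lamp2 (0.97), Slc15a3 and App for Tlr2, Mcfd2 (0.95), Atp6ap2 and Peli2 for Cd14, and Fkbp15 (0.92), Slc11a1 and Ppt1 for Tlr4. Tlr3 was most like Fam167b (0.95), Bco2 and Soga1, and Tlr8 most like Klra2 (0.97), Gm9733 and Nod2. Tlr7 was most like Adgre1 (0.91), Dram2 and Lrp5, and Tlr13 most like AF251705 (0.97), Il13ra1 and Lrrc25. For the lower members the best correlations were 0.88 for Tlr1 (Dnase2a, then P2rx4 and Cd86), 0.87 for Tlr6 (Hsd17b11, Pla2g4a and Atp6v0b) and 0.84 for Tlr9 (Hmox2, Tmem55b and Ly86), and that of Tlr9 rests on 101 UMIs. Adgre1 encodes F4/80, a surface protein of macrophages, Lamp2 a membrane protein of lysosomes, and Nod2 an intracellular receptor for bacterial cell wall.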

How the data were processed

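The authors deposited 1 table of unnormalised UMI counts for each library (genes by barcodes), written by Cell Ranger 3.1.0 per the file headers, on mm10 per the submitters' processing notes. Aligner settings, use of strand and the annotation release are not given in the sources used here. The tables held 7950206, 9952379, 13428840 and 21471565 UMIs (healthy brain, IgG, anti-CTLA-4, depletion). Of the 27998 gene IDs, 27645 were matched in GENCODE vM21 for positions.

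Kept cells had 200 genes or more and no more than 10% of UMIs from mitochondrial genes. Scrublet (through scanpy 1.11.5) removed 12 and 10 doublets in healthy brain and IgG by its automatic threshold. In anti-CTLA-4 and depletion it marked under 0.5% of cells, and the top 5% of scores, 90 and 169 cells, were removed instead. Clustering used counts scaled to 10000 per cell, 2000 variable genes without the members and pathway genes, 30 principal components, 15 neighbours and Leiden resolution 1, without integration. Clusters were named from marker lists after they were seen.

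UMIs were summed per lineage and library. Levels carry exact Poisson intervals, ratios exact conditional-binomial intervals, and the limit beside a value of 0 is 3 counts of the total. With 1 library a group no test was made. The rule for calls went over all genes of the table. All 10 members are named. Pathway genes are named as Myd88, Ticam1, Unc93b1 and Ly96, and up to 4 called genes with the largest log2 ratios per comparison and lineage. Further called genes are named where their calls ended under another setting. Irak3 and the classical monocyte and neutrophil ratios were chosen after their values were seen. For likeness, the 3 genes with the highest correlation are named. The members, lists and rules were chosen with earlier results of these data known. The calling steps were tested on simulated data. Alternatives were other filters, scalings, depths, resolutions and thresholds.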

Additional observations from a re-analysis of the deposited data

How the results depend on the processing

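No paired analysis was possible because each group had 1 library. Under the alternatives, 49 member ratios gave 440 values, of which 411 kept their direction. In 13 the ratio moved by over 1.5 times, mostly with cells thinned to 1000 UMIs, where few UMIs remain. Turning was counted for called ratios only, 1 higher and 2 lower in depletion against anti-CTLA-4, and 0 of them turned. Counts of called members moved as follows, and the cause was not tested except where fewer cells, UMIs or a wider threshold give it by construction. For IgG against healthy brain, 0 higher became 3 at resolution 0.5 and 3 with at least 30 cells (added after seeing the data), and 0 lower became 1 at resolution 0.5 and 2 with a ratio of 1.5. For anti-CTLA-4 against IgG, 0 higher became 1 with a ratio of 1.5, and 0 lower became 1 with that ratio, 1 with at least 20 UMIs and 1 at resolution 2. For depletion against anti-CTLA-4, 1 higher became 2 without doublet removal, 3 with a ratio of 1.5 and 0 with thinned cells, mean per-cell CPM or resolution 0.5, and 2 lower became 0 with thinned cells, where Tlr3 and Tlr4 held too few UMIs, 4 with mean per-cell CPM and 7 with a ratio of 1.5. The lineage with the highest level of a member was the same in 26 of 40 cases with thinned cells, 35 with mean per-cell CPM, 37 without ribosomal and mitochondrial genes, 38 at resolutions 0.5 and 2, and 40 under the other settings tried. Median-of-ratios scaling moved the log2 ratios by over 0.1 in microglia and T cells for IgG against healthy brain (-0.26 and 0.14) and for depletion against anti-CTLA-4 (-0.18 and -0.12), and in B cells for all 3 comparisons (-0.20, -0.11 and 0.15). The same settings were applied to the pathway genes after seeing the data. Depth limits Tlr9 and Tlr8 most, and no value has a replicate.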

Other observations

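3 clusters were given no lineage. One of 96 cells was led by 2810417H13Rik, Hist1h1b and other genes of dividing cells, with 36 cells in healthy brain, 16 in IgG, 15 in anti-CTLA-4 and 29 in depletion. In its 36 healthy cells Tlr13 had 5 UMIs, Cd14 3 and Tlr2 2, and Tlr3 and Tlr9 had 0. The others were a cluster of 28 cells led by Retnla, Ccr3 and Alox15 with a median of 688 UMIs, and one of 21 cells led by Jchain and Mzb1, genes of plasma cells.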
